A study of Arabidopsis thaliana with 6 samples.

Results

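The loci described here carry numbers AT2G07670 to AT2G07839, the range assigned to a nuclear copy of mitochondrial DNA on chromosome 2 of the Columbia accession of Arabidopsis thaliana. Every row of the deposited gene table in that range was taken, except AT2G07690 (MCM5, a subunit of the replicative DNA helicase), which gave 138 of 33602 listed loci. Expression was measured by RNA-seq of poly(A) RNA from F1 endosperm nuclei, isolated by INTACT, which pulls down nuclei through a tagged envelope protein, at 4 days after pollination. The cross Cm x L had as its mother TEmob, a Columbia-0 line carrying the INTACT tag, and as its father Landsberg erecta (Ler). In L x Cm the mother was the pistillata mutant of Ler, which forms no stamens, and TEmob gave the pollen. TEmob is 1 diploid line derived from plants exposed as seeds to α-amanitin and zebularine and then to heat, taken through a haploid stage with a CENH3-TAILSWAP parent and doubled with colchicine, so both crosses carry its genome. Each cross had 3 libraries, numbered 1 to 3. The labels do not say whether these came from separate plants or pools, and p-values measure the spread between these libraries, which may be technical.

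Plant mitochondria keep a small genome that encodes subunits of the respiratory chain complexes and of ATP synthase, factors that mature cytochrome c, some ribosomal proteins, a maturase and tRNAs. Pieces of this genome also move into the nucleus, and the Columbia genome holds one such copy beside the centromere of chromosome 2. Mitochondria pass through the mother, so the mitochondria of Cm x L endosperm are those of TEmob and the mitochondria of L x Cm endosperm are those of Ler. In endosperm the mother also gives the larger nuclear dose. Direction of cross, mitochondrial accession and nuclear dose of the Columbia copy therefore cannot be told apart in these libraries. Nor can the pistillata mutation, which only the mother of L x Cm carried.

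The range was set against the mitochondrial genome of RefSeq TAIR10.1 by sequence matching, and 123 of the 138 loci lay in one stretch that matched it. The stretch ran over chr2:3239038-3509765, 270728 bases, of which 269621 were in matched blocks. The blocks shared 99.9% of their aligned bases with mitochondrial DNA, with 206 mismatches in 288139 aligned bases, and covered 72.2% of the 367808-base mitochondrial genome. All 123 loci were covered from end to end by mitochondrial matches, and 74 of them had no difference at all in their best match. The other 15 loci (AT2G07744 on the left of the stretch, and 14 on its right from AT2G07680 onwards) had no mitochondrial match. The name of the insertion does not hold for those 15, and they are described apart below. This split was made after values had been seen. Of the 123 loci inside, 60 were annotated as protein coding, 24 as transcribed pseudogenes, 18 as pseudogenes and 21 as tRNA genes.

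The 50 bases on each side of both ends of the matched stretch are shown to mark where mitochondrial sequence starts and stops on the plus strand of chromosome 2. Capitals mark the part in the mitochondrial match. The left end is chr2:3238988-3239087 and the right end is chr2:3509716-3509815.
left end: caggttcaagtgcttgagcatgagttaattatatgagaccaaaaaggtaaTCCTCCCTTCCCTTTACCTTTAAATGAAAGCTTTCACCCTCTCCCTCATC
right end: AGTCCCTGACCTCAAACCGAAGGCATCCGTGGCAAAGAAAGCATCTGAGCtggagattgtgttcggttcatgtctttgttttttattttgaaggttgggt

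How far a piece of DNA sequence could tell the nuclear copy from mitochondrial DNA depends on its length. The windows below compare DNA with DNA, and the sequences of the RNA reads were not examined. Within the stretch, 95.9% of all 50-base windows, 92.3% of all 100-base windows and 88.8% of all 150-base windows occurred unchanged in the mitochondrial genome. AT2G07783 had the highest level of the set and is a transcribed pseudogene of ccmFN1, whose mitochondrial counterpart acts in cytochrome c maturation. Its 1504 bases held 1 difference from mitochondrial DNA, which is shown in capitals in a window of 101 bases, plus strand, at chr2:3297893-3297993 and at 316016-316116 of the mitochondrial genome.
AT2G07783, nuclear copy: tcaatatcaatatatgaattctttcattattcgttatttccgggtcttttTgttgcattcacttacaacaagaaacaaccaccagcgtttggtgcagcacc
AT2G07783, mitochondrial DNA: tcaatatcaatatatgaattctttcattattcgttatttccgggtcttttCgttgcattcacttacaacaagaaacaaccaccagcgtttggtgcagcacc

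All 146 listed mitochondrial genes and all 133 listed chloroplast genes stood at 0 in the 6 libraries. The deposited values therefore hold no level of the organelle copies against which the insertion could be set, and the part of mitochondrial RNA in the insertion's values was not tested.

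Recovered totals were 22.2 to 29.2 M reads per library in Cm x L and 21.2 to 27.2 M in L x Cm. All 7 endosperm markers were detected in every library, with summed levels of 286 to 328 RPKM in Cm x L and 337 to 380 RPKM in L x Cm. Other tissues were present as well. The 4 seed coat markers summed to 99.6 to 354 RPKM in Cm x L and 191 to 414 RPKM in L x Cm. The 4 embryo markers summed to 3.33 to 8.13 RPKM in Cm x L and 41.9 to 80.3 RPKM in L x Cm, with CUC3 at 0 in Cm x L replicate 3. The 3 pollen markers summed to 89.1, 510 and 50.5 RPKM in Cm x L and to 596, 2353 and 876 RPKM in L x Cm. No other marker was at 0. Fewer cells of a type and less RNA per cell cannot be told apart in such bulk samples, and the part of these tissues in the results below was not tested.

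Most of the 123 loci of the insertion had their highest level in 1 library. The median level of the 123 was 1.18, 9.25 and 0.135 RPKM over replicates 1 to 3 of Cm x L. Over those of L x Cm it was 0.993, 1.18 and 2.94 RPKM. By median, Cm x L replicate 2 stood above every other library, Cm x L replicate 3 below every other, and the crosses overlapped. The summed RPKM was instead highest in L x Cm replicate 3, at 1817 against 1696 RPKM in Cm x L replicate 2. None of the 123 loci was listed at 0 in Cm x L replicate 2, where the lowest had 1.46 RPKM. In Cm x L replicates 1 and 3, 17 and 56 loci were at 0, against 22, 17 and 24 in L x Cm replicates 1 to 3. A level of at least 3 RPKM was reached by 35, 121 and 21 loci in Cm x L and by 31, 38 and 60 loci in L x Cm. Cm x L replicate 2 gave the highest value of 99 loci and L x Cm replicate 3 that of 20. With Cm x L replicate 2 set aside, L x Cm replicate 3 was highest for 74 of the 123.

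**Figure D1:**
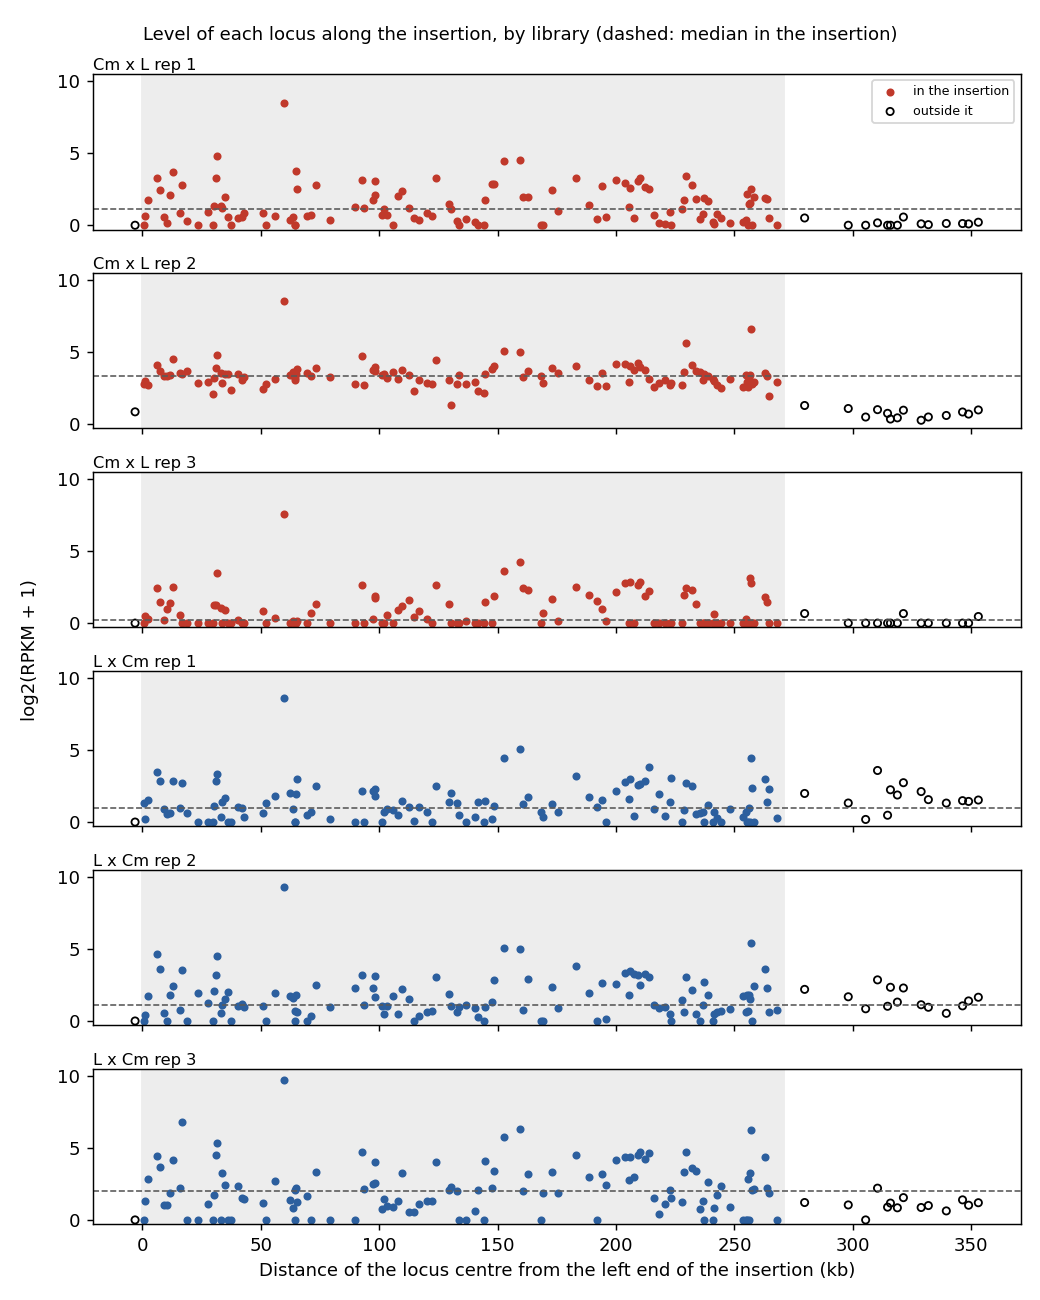
Level of the 138 loci, as log2(RPKM + 1), by distance of the locus centre from the left end of the insertion in kb, with a panel per library (Cm x L red, L x Cm blue). Grey shading is the matched stretch, open circles are the 15 loci outside it and dashed lines are medians of the 123 inside: 1.18, 9.25 and 0.135 RPKM in Cm x L, and 0.993, 1.18 and 2.94 RPKM in L x Cm.

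The raised level in Cm x L replicate 2 ran along the whole insertion. In that library the medians of the 5 equal parts of the stretch lay between 7.40 and 11.3 RPKM. Medians of the same parts lay between 0.714 and 3.75 RPKM in Cm x L replicate 1, between 0 and 2.48 RPKM in Cm x L replicate 3 and between 1.74 and 8.15 RPKM in L x Cm replicate 3. In every library the highest part was the fourth from the left, at 2.19 and 4.84 RPKM in L x Cm replicates 1 and 2. That part holds cob, encoding cytochrome b, among others. Levels differed between loci. Across the 20 loci at 0 in at least 3 of the 5 other libraries, Cm x L replicate 2 had 3.18 to 11.7 RPKM, with a median of 6.50. Across the 24 loci at 3 RPKM or more in at least 4 of them, it had 7.80 to 371 RPKM, with a median of 16.8. Over all 123, its value minus the median of the 5 other libraries ran from -25.6 to 77.5 RPKM, with quartiles of 5.32 and 9.16 RPKM, and 1 locus was below 0.

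Loci beside the insertion and pseudogenes elsewhere were also higher in that library than in the other Cm x L libraries, at lower levels. The 15 loci outside the stretch had medians of 0.0659, 0.686 and 0 RPKM in Cm x L and 1.89, 1.48 and 1.03 RPKM in L x Cm. The 94 flanking loci had 0.0298, 0.531 and 0 RPKM in Cm x L and 1.18, 0.727 and 0.456 RPKM in L x Cm. These are the 50 listed loci by number on each side, less 6 found inside the stretch. With those 6 kept, the medians were 0.0379, 0.543 and 0 RPKM in Cm x L and 1.22, 0.755 and 0.466 RPKM in L x Cm. The 3881 pseudogenes elsewhere in the genome had 0.0312, 0.587 and 0 RPKM in Cm x L and 1.36, 0.798 and 0.536 RPKM in L x Cm. Medians of all 3 sets were lower in Cm x L replicate 2 than in L x Cm replicates 1 and 2. Set against Cm x L replicate 1, the median of Cm x L replicate 2 was 8.07 RPKM higher in the insertion, and 0.620, 0.501 and 0.556 RPKM higher in the loci outside, the flanking loci and the pseudogenes. As a ratio it was 7.84 times that of replicate 1 in the insertion, and 10.4, 17.9 and 18.8 times in those sets, whose medians in replicate 1 were near the worth of 1 or 2 reads on 1 kb (0.0342 RPKM a read). As a ratio to Cm x L replicate 1, the rise in that library was thus not particular to the insertion, but these ratios rest on such low medians. Against L x Cm replicates 1 and 2, at 0.993 and 1.18 RPKM, the insertion's median of 9.25 RPKM was higher, unlike those of the 3 sets. Among all 33602 listed loci, 5036, 1005 and 10084 loci stood at 0 in Cm x L and 1270, 2137 and 3636 in L x Cm, so Cm x L replicate 2 had the fewest. The pollen marker sum was also highest in replicate 2 within Cm x L, and the part of any of these in the insertion's level was not tested.

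**Figure D2:**
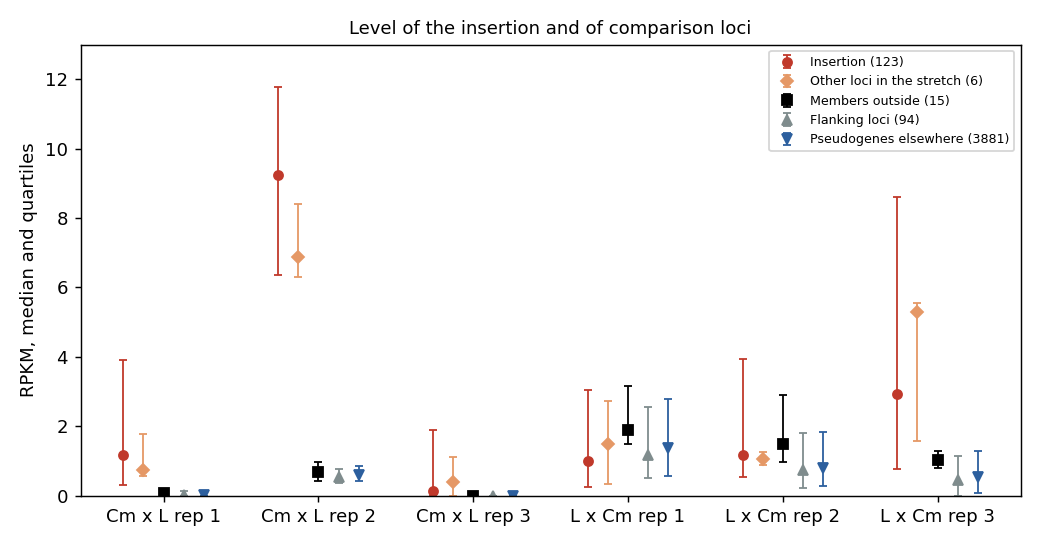
Median level in RPKM (points) with quartiles (bars) of the insertion and of 4 comparison sets in each library, Cm x L left and L x Cm right, with the number of loci in brackets. The insertion had 9.25 RPKM in Cm x L replicate 2, where loci outside it had 0.686 RPKM.

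The 6 other listed loci inside the stretch, numbered outside the range, also had their highest median in Cm x L replicate 2. The median was 0.745, 6.88 and 0.404 RPKM in Cm x L and 1.49, 1.06 and 5.29 RPKM in L x Cm. Each of 3 short loci elsewhere in the nucleus was highest in that library too, and these match mitochondrial DNA over their whole length at 99.1% identity or more. AT1G65346 had 0.0927, 9.77 and 0 RPKM in Cm x L and 1.79, 0.125 and 1.41 RPKM in L x Cm. AT1G65347 had 0.129, 6.998 and 0 RPKM in Cm x L and 0.231, 0.0580 and 0.594 RPKM in L x Cm. AT2G18323 had 0.964, 8.16 and 0.424 RPKM in Cm x L and 3.62, 0 and 0 RPKM in L x Cm. They were singled out by their sequence match, and no test was made of them.

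Levels differed within roles as well as between them. AT2G07783 (ccmFN1) stood far above the rest, with 366, 371 and 188 RPKM in Cm x L and 396, 640 and 836 RPKM in L x Cm, and the crosses did not overlap. It rested on 16113, 13149 and 6264 reads in Cm x L and 16219, 20901 and 26662 reads in L x Cm. It made up 51.3%, 21.9% and 51.4% of the insertion's summed RPKM in Cm x L and 56.1%, 58.9% and 46.0% in L x Cm. Without it the sum was 348, 1325 and 178 RPKM in Cm x L and 310, 446 and 981 RPKM in L x Cm. The difference was -1.02 ± 0.38 on the log2(RPKM + 1) scale (SE, n = 3 each), with an adjusted p of 0.0799 by limma's moderated test, and it was not called.

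The other 5 loci for cytochrome c maturation were lower. AT2G07723 (ccmFC) had 6.80, 16.9 and 5.998 RPKM in Cm x L and 5.79, 9.12 and 19.8 RPKM in L x Cm. AT2G07815, annotated as a ccmF-like protein and overlapping AT2G07723, had 5.09, 15.3 and 6.18 RPKM in Cm x L and 6.95, 10.2 and 19.4 RPKM in L x Cm. Reads of overlapping loci cannot be told apart here. AT2G07768 (ccmFN2) had 2.87, 10.12 and 0.874 RPKM in Cm x L and 2.13, 1.88 and 4.46 RPKM in L x Cm. The 2 ccmC loci were the lowest, AT2G07771 at 0.532, 6.82 and 0.410 RPKM in Cm x L and 0.143, 0.359 and 1.53 RPKM in L x Cm. AT2G07681 had 0.791, 4.50 and 0.808 RPKM in Cm x L and 0.529, 1.09 and 1.23 RPKM in L x Cm. Both had their highest value in Cm x L replicate 2.

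The 12 loci that carry sequence of genes for complex I, the NADH dehydrogenase that feeds electrons into the chain, included the highest levels of the respiratory complexes. AT2G07711 (nad5) had 22.3, 31.9 and 18.3 RPKM in Cm x L and 33.4, 31.6 and 79.3 RPKM in L x Cm. AT2G07709 (nad7) had 21.3, 33.3 and 11.3 RPKM in Cm x L and 20.6, 32.1 and 54.3 RPKM in L x Cm. Both were highest in L x Cm replicate 3, and the crosses overlapped. AT2G07747, annotated as a pseudogene of an intron maturase, was counted here for its overlap with nad1. It had 8.74, 16.7 and 4.49 RPKM in Cm x L and 10.2, 24.2 and 20.7 RPKM in L x Cm. AT2G07717 (nad4) had 8.94, 15.7 and 4.61 RPKM in Cm x L and 8.30, 13.4 and 22.2 RPKM in L x Cm. AT2G07751 (nad3) had 8.82, 13.9 and 1.39 RPKM in Cm x L and 6.28, 8.13 and 21.9 RPKM in L x Cm. The other 7 complex I loci (AT2G07808, AT2G07733, AT2G07785, AT2G07689, AT2G07811, AT2G07731 and AT2G07786) carry sequence of nad1, nad2 or nad6. The lowest of them, AT2G07786, had 2.81, 8.62 and 4.41 RPKM in Cm x L and 1.44, 0.720 and 2.95 RPKM in L x Cm. Over the 12, Cm x L replicate 2 was highest for 6, L x Cm replicate 3 for 5 and L x Cm replicate 2 for 1. These loci are not all separate, since AT2G07808 lies within AT2G07811, and AT2G07717 overlaps AT2G07718 of complex III.

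All 6 ATP synthase loci were highest in Cm x L replicate 2. AT2G07671 (atp9, a subunit of the membrane ring) had 11.9, 21.5 and 4.62 RPKM in Cm x L and 6.22, 4.31 and 17.2 RPKM in L x Cm. AT2G07698 (atp1, the alpha subunit) had 8.94, 20.5 and 5.12 RPKM in Cm x L and 4.76, 7.22 and 15.02 RPKM in L x Cm. AT2G07707 (atp8) had 6.24, 13.3 and 0 RPKM in Cm x L and 0.154, 1.45 and 3.56 RPKM in L x Cm. Medians of the 6 were 4.79, 11.4 and 1.73 RPKM in Cm x L and 1.67, 3.22 and 3.61 RPKM in L x Cm, with AT2G07777, AT2G07741 and AT2G07699 between 0.512 and 9.46 RPKM. In complex III, AT2G07727 (cob, cytochrome b) had 5.43, 12.7 and 2.71 RPKM in Cm x L and 6.26, 8.42 and 17.8 RPKM in L x Cm. The other complex III loci, AT2G07718 and AT2G07773, reached at most 7.34 RPKM, in Cm x L replicate 2. In complex IV, AT2G07687 (cox3, a core subunit of cytochrome c oxidase) had 5.998, 13.9 and 1.54 RPKM in Cm x L and 4.79, 4.57 and 8.83 RPKM in L x Cm. AT2G07695, a cox2-like locus, had 3.01, 7.70 and 0.876 RPKM in Cm x L and 0.378, 0.368 and 1.45 RPKM in L x Cm.

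Among the 6 loci for ribosomal proteins, AT2G07675 (rps12) was highest, with 27.1, 26.4 and 10.4 RPKM in Cm x L and 8.95, 21.3 and 38.7 RPKM in L x Cm. AT2G07726 (rps14) had 8.59, 14.9 and 6.39 RPKM in Cm x L and 5.20, 4.63 and 25.6 RPKM in L x Cm. AT2G07725 (rpl5), which overlaps AT2G07726, had 7.34, 18.3 and 5.32 RPKM in Cm x L and 4.83, 7.97 and 21.3 RPKM in L x Cm. The other 3 (AT2G07715 for rpl2, AT2G07734 for rps4 and AT2G07696 for rps7) were highest in Cm x L replicate 2, at 13.9, 12.1 and 9.58 RPKM. AT2G07712 (matR, which acts in intron splicing) is annotated, like AT2G07747, as a pseudogene of an intron maturase. It had 2.99, 11.9 and 3.85 RPKM in Cm x L and 2.37, 6.59 and 8.30 RPKM in L x Cm. AT2G07716 (mttB, a protein translocase gene) had 0.967, 10.5 and 0.102 RPKM in Cm x L and 0.624, 0.834 and 2.72 RPKM in L x Cm.

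**Figure D3:**
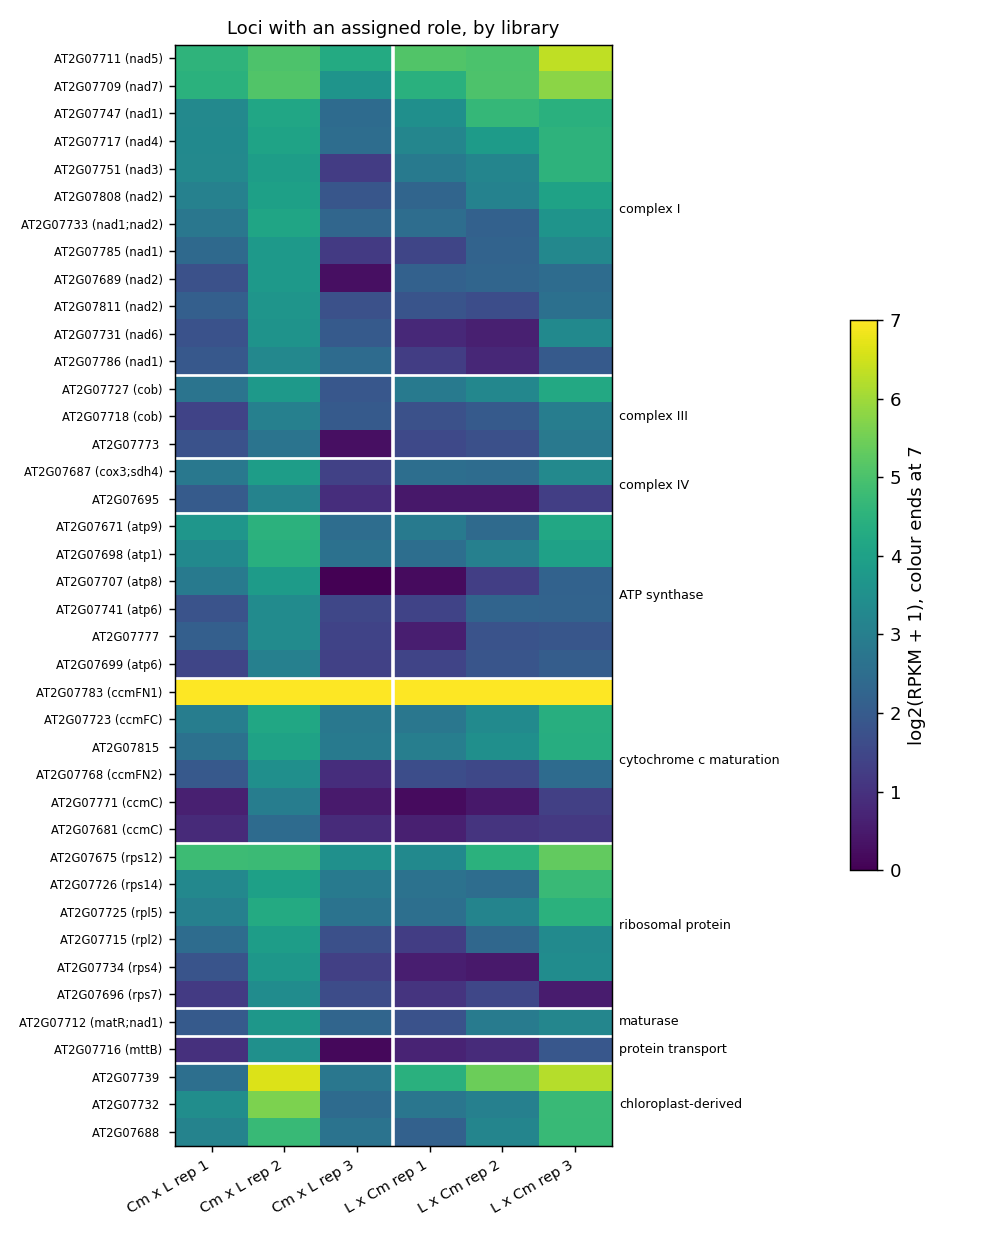
Level, as log2(RPKM + 1) in colour, of the 40 loci of the insertion with an assigned role other than tRNA, in rows grouped by role, and of the 3 Cm x L and 3 L x Cm libraries in columns. AT2G07783 (ccmFN1) is at 188 RPKM or more in every library, and the Cm x L replicate 2 column is filled throughout, with no value below 4.50 RPKM.

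Mitochondrial genomes also hold pieces taken up from the chloroplast. Apart from tRNA loci and short pseudogenes, 3 loci of the insertion matched chloroplast DNA over at least 75% of their length. AT2G07739, annotated as a Ycf1 protein, had 4.85, 98.4 and 5.79 RPKM in Cm x L and 20.9, 42.1 and 73.3 RPKM in L x Cm. AT2G07732, annotated as the large chain of Rubisco, the carbon-fixing enzyme, had 9.75, 48.1 and 4.46 RPKM in Cm x L and 5.69, 7.29 and 25.7 RPKM in L x Cm. AT2G07688 had 7.81, 25.2 and 5.36 RPKM in Cm x L and 3.52, 8.16 and 25.1 RPKM in L x Cm. All 3 were highest in Cm x L replicate 2, above the insertion's upper quartile of 11.8 RPKM there. They matched mitochondrial DNA at 100%, 99.7% and 100% identity and chloroplast DNA at 97.1%, 96.9% and 94.4%. AT2G07739 differed from the chloroplast at 24 aligned positions, and a window of 150 bases with 6 of them is shown in capitals, at chr2:3495578-3495727 on the plus strand and 109788-109937 on the minus strand of the chloroplast genome.
AT2G07739, nuclear copy: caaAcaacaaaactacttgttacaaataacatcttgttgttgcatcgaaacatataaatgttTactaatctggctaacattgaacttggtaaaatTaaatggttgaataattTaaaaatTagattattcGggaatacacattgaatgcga
AT2G07739, chloroplast DNA: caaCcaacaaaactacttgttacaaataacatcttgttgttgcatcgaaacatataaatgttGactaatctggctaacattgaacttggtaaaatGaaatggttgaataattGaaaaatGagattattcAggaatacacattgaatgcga

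The 21 tRNA loci are short and hold few reads. Their median was 1.18, 6.48 and 0 RPKM in Cm x L and 0, 1.12 and 3.14 RPKM in L x Cm, with 8, 0 and 19 at 0 in Cm x L and 11, 6 and 7 at 0 in L x Cm. AT2G07743 (tRNA-Asp) had 6.01, 10.3 and 0 RPKM in Cm x L and 5.46, 10.6 and 112 RPKM in L x Cm. L x Cm replicate 3 was highest for this locus and for 3 other tRNA loci, and no other tRNA locus passed 23.8 RPKM in any library. AT2G07757 (tRNA-Ser) had 4.72, 7.80 and 3.63 RPKM in Cm x L and 13.1, 7.41 and 23.8 RPKM in L x Cm. AT2G07743 and AT2G07757 matched chloroplast DNA over their whole length, at 98.65% and 95.4% identity. The tRNA loci AT2G07748, AT2G07755 and AT2G07764 also matched it. The other 62 loci were given none of these roles and are for the most part uncharacterized reading frames and pseudogenes. Some have an annotation, such as AT2G07749 (a mitovirus RNA-dependent RNA polymerase) and AT2G07719 (a putative membrane lipoprotein). The 62 had medians of 0.475, 8.17 and 0 RPKM in Cm x L and 0.624, 0.845 and 1.19 RPKM in L x Cm. Cm x L replicate 2 was highest for 59 of the 62.

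The insertion also repeats itself. AT2G07742 and AT2G07778, pseudogenes at chr2:3239657-3239728 (minus strand) and chr2:3290966-3291037 (plus strand), have the same 72 bases and are shown because reads could not tell them apart.
AT2G07742: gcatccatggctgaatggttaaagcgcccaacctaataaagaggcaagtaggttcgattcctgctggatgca
AT2G07778: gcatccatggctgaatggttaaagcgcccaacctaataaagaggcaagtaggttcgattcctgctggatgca
Both had 0, 5.89 and 0 RPKM in Cm x L and 1.53, 0 and 0 RPKM in L x Cm, the same value in each library. In the other 3 pairs of identical loci (AT2G07753 and AT2G07761, AT2G07754 and AT2G07759, AT2G07766 and AT2G07793) the values were not the same in all libraries.

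No locus of the insertion was called different between the crosses. Of the 123, 119 reached a mean of 1 RPKM and were tested with limma on log2(RPKM + 1), with p-values adjusted over all 26620 tested loci of the table. At an adjusted p below 0.05, limma called 0 higher and 0 lower in Cm x L, beside 6.73% higher and 18.3% lower among all tested loci. At an unadjusted p below 0.05 there were 6 loci, AT2G07767, AT2G07783, AT2G07711, AT2G07786, AT2G07757 and AT2G07835, beside 41.5% of all tested loci. The median difference, Cm x L minus L x Cm, was 0.28 over the 119, against -0.22 over all tested loci, and 0.30 over all 123 without the filter. Values of Cm x L and L x Cm were fully apart for 2 of the 119, AT2G07783 and AT2G07767, beside 45.5% of all tested loci. AT2G07767, an uncharacterized pseudogene, had 1.57, 10.7 and 1.10 RPKM in Cm x L and 0.298, 0.498 and 0 RPKM in L x Cm, with an adjusted p of 0.0907 by limma. The filter took the mean of all 6 libraries, so loci high in 1 library passed it through that library.

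The median difference depended on Cm x L replicate 2. Without that library 74 loci of the insertion passed the filter, against 119 with it, so the medians of these fits are over unlike sets of loci. The median difference of the 74 was then -0.59, and 10 were above 0 and 64 below. Of these 74, 26 had changed sign. Then limma called 0 higher and 4 lower, beside 3.28% and 14.9% of all loci tested without it. The 4 were AT2G07739 (Ycf1), with a difference of -2.71 ± 0.47 (SE) and an adjusted p of 0.0159 by limma, and the uncharacterized AT2G07682, AT2G07772 and AT2G07835. Without Cm x L replicate 3, 3 loci were higher, AT2G07695, AT2G07707 and AT2G07754 (tRNA-Ser), beside 8.34% of all loci tested, and the median was 0.78. Quantile normalization moved the median of all tested loci to 0.02 and gave 6 higher loci, AT2G07686, AT2G07695, AT2G07696, AT2G07767, AT2G07786 and AT2G07809, beside 7.33%. Of these, AT2G07682, AT2G07772, AT2G07835, AT2G07754, AT2G07686, AT2G07767 and AT2G07809 were named after their values were seen.

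**Figure D4:**
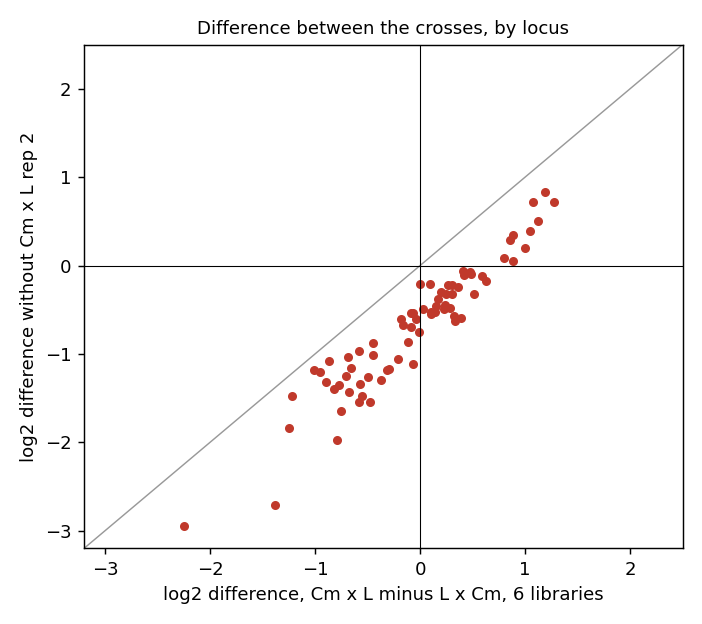
Difference between the crosses for the 74 loci of the insertion tested in both fits, Cm x L minus L x Cm in log2(RPKM + 1), from all 6 libraries (horizontal) and without Cm x L replicate 2 (vertical), with the line of equal values in grey. Every point lies below the line, and the count below 0 is 64 without that library.

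Of the 15 loci outside the stretch, 5 passed the filter and 3 were lower in Cm x L, all annotated as pseudogenes. AT2G07789 had 0.122, 1.01 and 0 RPKM in Cm x L and 11.0, 6.24 and 3.61 RPKM in L x Cm. The difference was -2.49 ± 0.46 (SE, n = 3 each), with an adjusted p of 0.0119 by limma, and it was called in each of the 6 fits that left out 1 library. AT2G07710 had 0, 0.281 and 0 RPKM in Cm x L and 3.73, 4.07 and 1.25 RPKM in L x Cm, with an adjusted p of 0.0230. AT2G07791 had 0.484, 0.961 and 0.584 RPKM in Cm x L and 5.65, 3.90 and 1.93 RPKM in L x Cm, with an adjusted p of 0.0347 by limma. In Cm x L the mean of each of these 3 was below 1 RPKM, so each passed the filter only through L x Cm. A locus this low in Cm x L could be tested only if it was higher in L x Cm, so the filter set the direction of these differences. The count of lower loci fell to 1 without Cm x L replicate 1, without L x Cm replicate 1 and without L x Cm replicate 2. The background of lower calls was 18.3%, and 9 of the 28 tested flanking loci outside the stretch were lower as well. AT2G07680 (a multidrug resistance-associated protein, a membrane transporter) had 0.419, 1.46 and 0.585 RPKM in Cm x L and 2.96, 3.58 and 1.31 RPKM in L x Cm and was not called. AT2G07744, just left of the insertion, had 0, 0.812 and 0 RPKM in Cm x L, which is 55 reads in replicate 2, and 0 in each L x Cm library. MCM5, which the number range leaves out, had 58.8, 51.5 and 65.7 RPKM in Cm x L and 33.4, 43.3 and 46.7 RPKM in L x Cm. Its adjusted p was 0.0714 by limma, and it was not raised in Cm x L replicate 2.

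Nuclear genes for the respiratory chain and ATP synthase were set beside the insertion. Most belong to complexes I, III, IV and ATP synthase, whose subunits come from both genomes. The list also holds 5 genes of complex II and 2 of cytochrome c, roles that no locus of the insertion was given. All 60 listed respiratory genes were tested, and limma called 0 higher and 0 lower, with 4 at an unadjusted p below 0.05. Of these genes 55 had a mean of at least 20 RPKM, and among all loci at that mean 14.1% were higher, 6.7% were lower and 36.9% had an unadjusted p below 0.05. The median difference of the 60 was 0.01. Of the 8 listed genes for maintenance and transcription of the mitochondrial genome, 5 were higher in Cm x L, beside 6.73% of all tested loci, and 6.35% of the 8662 with a mean of 5 to 20 RPKM, the range that holds all 8. None of the 8 was lower, beside 13.4% in that range, and 6 had an unadjusted p below 0.05, beside 33.9%. The median difference of the 8 was 0.87, and the 5 were named after their values were seen. MSH1, a MutS homologue that keeps organelle genomes stable, had 7.89, 8.76 and 9.12 RPKM in Cm x L and 3.05, 3.50 and 2.92 RPKM in L x Cm. Its difference was 1.21 ± 0.24 (SE), with an adjusted p of 0.0144 by limma. AT5G15700, a DNA/RNA polymerase superfamily protein, had 23.7, 18.4 and 21.2 RPKM in Cm x L and 11.2, 9.47 and 8.01 RPKM in L x Cm, with an adjusted p of 0.0121. AT1G68990 (MGP3) had an adjusted p of 0.0184, AT5G14580 (polyribonucleotide nucleotidyltransferase, an RNA-degrading enzyme) one of 0.0370 and AT1G30680 (a toprim domain protein) one of 0.0436. In none of the 5 did the crosses overlap, beside 45.5% of all tested loci without overlap, and the 5 were picked because they were called. Cm x L replicate 2 did not stand apart in them. The count depended on single libraries, with 0 without Cm x L replicate 1, 2 without L x Cm replicate 2, 3 each without Cm x L replicate 2, Cm x L replicate 3 or L x Cm replicate 1, and 5 without L x Cm replicate 3.

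**Figure D5:**
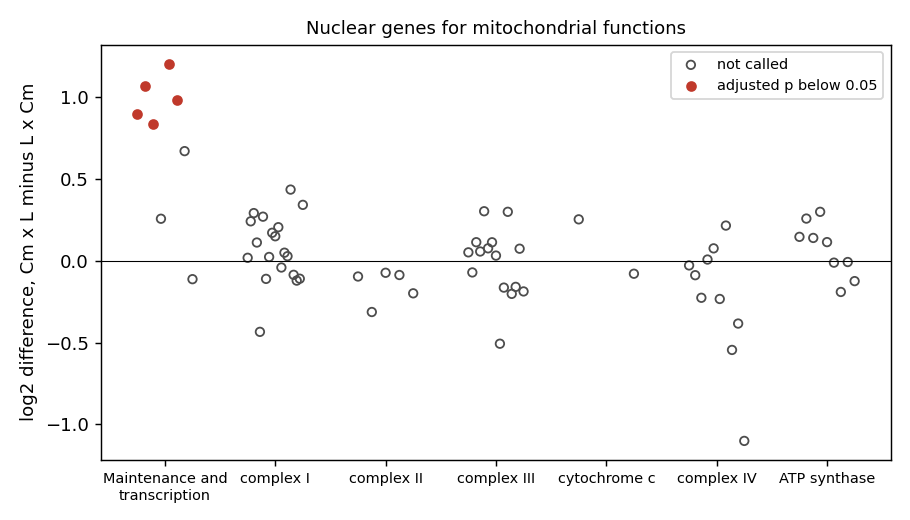
Difference between the crosses, Cm x L minus L x Cm in log2(RPKM + 1), by nuclear gene. The 8 genes for maintenance and transcription of the mitochondrial genome are on the left. The 60 genes for respiratory complexes, cytochrome c and ATP synthase are in the other columns. Filled points passed an adjusted p of 0.05: 5 of the 8 and 0 of the 60.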

How the data were processed

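RNA was extracted from purified nuclei with the mirVana kit, selected for poly(A) and built into libraries with an NEBNext Ultra II kit, as the labels' protocols state. Per the submitters' processing notes, the aligner was TopHat2 2.1.0 and the build TAIR10. How reads that match several places were counted, with which tool and on which strand, is not given in these sources. Values in the deposited table are RPKM (reads scaled by the authors to gene length and library total). 0 columns were left unmapped.

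The deposited file gives no coordinates, so positions, classes and sequences are from RefSeq TAIR10.1, in which all 138 members were found. Matches to the mitochondrial and chloroplast genomes were found with blastn 2.17.0, and blocks of at least 2000 bases at 99% identity set the stretch. Library totals were recovered from RPKM steps on pseudogene lengths, where 99.5% to 99.8% of low pseudogene values came out as whole reads within 0.02. Among members with 1 exon and under 100 reads, 69.6% to 87.0% did. On 1 kb of exon, 3 reads were worth 0.103 to 0.141 RPKM, which covers counting error only.

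Values were tested as log2(RPKM + 1), a scale that understates the change of low loci, with limma 3.58.1 in R 4.3.3, as a 2-sided moderated test with an intensity trend, with Benjamini-Hochberg adjustment. Loci needed a mean of at least 1 RPKM. With 3 libraries a side, the smallest exact p is 0.10. The fit was tested on simulated data. Members and gene lists were chosen with earlier results of these data known. Of the 61 respiratory genes written down, AT2G42210 was dropped for its annotation. Named loci are the 15 with the highest mean, up to 10 called in each direction and all with a role in a respiratory complex, cytochrome c maturation or ribosomes. Python 3.11.15, pandas 2.3.3, numpy 2.4.6 and matplotlib 3.10.9 were used.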

Additional observations from a re-analysis of the deposited data

How the results depend on the processing

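Leaving out 1 library at a time moved the count of members higher in Cm x L between 0 and 3, the count lower between 1 and 6 and the median difference of the members between -0.62 and 0.72, with 0.25 from all 6 libraries. The filter was applied anew in each of these fits, so the set of loci tested differed. Members lower numbered 3 from all 6 libraries, 1 under quantile normalization and 0 at a mean of at least 5 RPKM, where 32 loci of the insertion and none outside it were left. The median difference at that mean was -0.08. Members higher numbered 6 under quantile normalization. Of the nuclear respiratory genes, 1 was lower under quantile normalization and 3 with libraries scaled to the same median, against 0 otherwise, and the cause was not tested. Over all loci, lower calls numbered 4870, against 1864 under quantile normalization and 1322 at a mean of at least 5 RPKM, and higher calls 1792, against 1950 and 1374. Leaving out 1 library gave 1291 to 5263 lower and 369 to 2289 higher calls. Signs of uncalled differences turned under quantile normalization in AT2G07675 (0.084), AT2G07687 (0.64), AT2G07689 (0.68), AT2G07718 (0.79), AT2G07723 (0.21), AT2G07725 (0.39), AT2G07773 (0.58) and AT2G07808 (0.41), with a pseudocount of 0.1 RPKM in AT2G07675 (0.002) and with libraries scaled to the same median in AT2G07726 (-0.016). They also turned on leaving out 1 library, over the ranges given, in AT2G07671 (-0.06 to 0.94), AT2G07675 (-0.53 to 0.47), AT2G07687 (-0.69 to 0.58), AT2G07688 (-0.46 to 0.82), AT2G07689 (-1.30 to 0.46), AT2G07698 (-0.23 to 0.68), AT2G07699 (-0.38 to 0.47), AT2G07715 (-0.24 to 0.88), AT2G07718 (-0.54 to 0.29), AT2G07723 (-0.61 to 0.26), AT2G07725 (-0.54 to 0.48), AT2G07726 (-0.30 to 0.82), AT2G07732 (-0.57 to 1.01), AT2G07733 (-0.22 to 0.73), AT2G07741 (-0.33 to 0.62), AT2G07751 (-1.25 to 0.072), AT2G07768 (-0.45 to 0.84), AT2G07773 (-1.01 to 0.19), AT2G07785 (-0.52 to 0.77), AT2G07808 (-0.67 to 0.39) and AT2G07811 (-0.10 to 0.87). The labels give both crosses replicates 1 to 3, and deviations of same-numbered libraries correlated at 0.08, 0.15 and 0.20. Those of L x Cm replicate 1 and Cm x L replicate 2 correlated at 0.12, and those of the other libraries with unlike numbers at -0.23 to -0.02. Whether same-numbered libraries are pairs was not settled by these values. The numbers were not taken as pairs in the main fit, and a fit with a block for replicate number was run beside it. With the replicate block, 0 members were higher and 3 lower with a median difference of 0.25, and 0 respiratory genes were higher and 0 lower. The block changed the call of none of the 42 named members. Depth limits short loci most, since a few reads decide the level of a tRNA locus.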
